A study of Rattus norvegicus with 18 samples.

Results

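The core genes of the actin cytoskeleton are a set of 50 genes for actin monomers and for the proteins that bind monomers, start, branch, elongate, cap, cut, cross-link and anchor actin filaments. They were followed in a rat study of rejection of transplanted hearts. Members were found by name: every probe set of the array whose only platform gene symbol is on the list was kept, and each gene was represented by the probe set with the highest mean over the 18 arrays. This gave 45 of the 50 genes, out of 14217 genes on the array, from 72 of 31042 probe sets. Beta-actin (Actb), cofilin 1 (Cfl1), Actr3 and thymosin beta 10 (Tmsb10) lie only on probe sets that the platform annotation shares with a second gene, and Was, the gene of the Wiskott-Aldrich syndrome protein, has no probe set under its own symbol, so these 5 genes have no value as members.

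Hearts of Wistar Furth rats were transplanted into the abdomen of ACI rats, all adult males, and RNA was taken from T cells and from the graft 1, 3 and 7 days later. The first group of recipients received cyclosporine by gavage at 10 mg/kg/day on days 0 to 2, a sub-therapeutic dose, plus an allochimeric class I peptide at 1 mg/kg through the portal vein at transplantation. The second group received the same cyclosporine without the peptide, and the third received no treatment. Each combination of tissue, treatment and day is 1 array, 18 in all, so a treatment difference is the mean over 3 days and a day difference the mean over 3 treatments. All 3 groups carry a transplant, and no array holds RNA of an untransplanted heart or of T cells from a rat without a graft. Every label, T cells included, names the Wistar Furth strain, so the strain and the organ of origin of the T cells are not settled here.

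Actin filaments give a cell its shape and the force to crawl. As background, the Arp2/3 complex starts new filaments as branches on old ones when it is switched on by proteins of the WASP family, while formins and Ena/VASP proteins elongate straight filaments. Migrating leukocytes and T cells that meet an antigen-presenting cell rebuild this network quickly, and many of its regulators have 1 form made mainly in blood cells (coronin 1A, L-plastin, HS1, FMNL1) and a related form made in muscle, endothelium or connective tissue.

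The values are linear array intensities as deposited, with upper quartiles that differ little between arrays. Differences were tested on the scale log2(intensity + 16) with limma and called at an adjusted p below 0.05 over all probe sets tested. A probe set was tested where it exceeded the 40th percentile of the array (126 to 145) on at least 3 arrays, and where a group lay at or below that level a fold is given as a bound, computed against the higher of that level and the gene's own value on each array. Values of 3 arrays are given in the order cyclosporine plus peptide, cyclosporine, untreated, and every ± is a standard error of the fit. Actg1, Tmsb4x, Pfn1 and, in T cells, Coro1a were the brightest members, near the array maxima of 17603 to 21860, where differences are compressed. The 8 cardiomyocyte genes measured summed to 444 to 786 on T cell arrays and to 82153 to 109153 on heart arrays, so the tissue labels held in all 18 arrays. The untreated day 1 T cell array stood apart from the others: its 6 neutrophil genes summed to 37311, against 1096 to 3259 on the other 8 T cell arrays, its 10 T cell genes were lowest at 51099, and its 4 B cell genes were highest at 25776. B cell genes summed to at least 7700 on all T cell arrays, so these preparations were not free of B cell RNA.

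In the grafts, most of the actin set was higher on day 7 than on day 1. Of 43 members tested, 32 were called higher and 6 lower, where 30.9% of all probe sets were called higher and 33.8% lower. The median member differed by 0.66 on the log2 scale, against -0.022 over all probe sets. The members with the largest rises were Pak1, Coro1a, Evl, Hcls1 and Coro1b, which were 3.65 to 4.71 times as high, and the largest fall was that of gelsolin (Gsn). Of 18 members with several probe sets, 17 had all of them moving in 1 direction, Enah being the exception. Leukocyte genes moved on the same days: the 7 pan-leukocyte genes summed to 28387 to 29152 on day 7 against 10644 to 11847 on day 1, the 10 T cell genes to 19782 to 24074 on day 7 against 1339 to 2310 on day 1, and the 7 of 8 listed macrophage genes that were measured to 47862 to 50421 on day 7 against 10855 to 11833 on day 1. The 6 neutrophil genes went the other way, summing to 3052 to 5645 on day 7 against 7414 to 17015 on day 1. The cardiomyocyte sum was 82153 to 94874 on day 7 against 105055 to 109153 on day 1, and the endothelial sum 3861 to 5299 on day 7 against 9791 to 10813 on day 1. The part of these lists in the member differences was not tested, and in bulk tissue fewer cells of a type and less RNA per cell cannot be told apart.

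**Figure D1:**
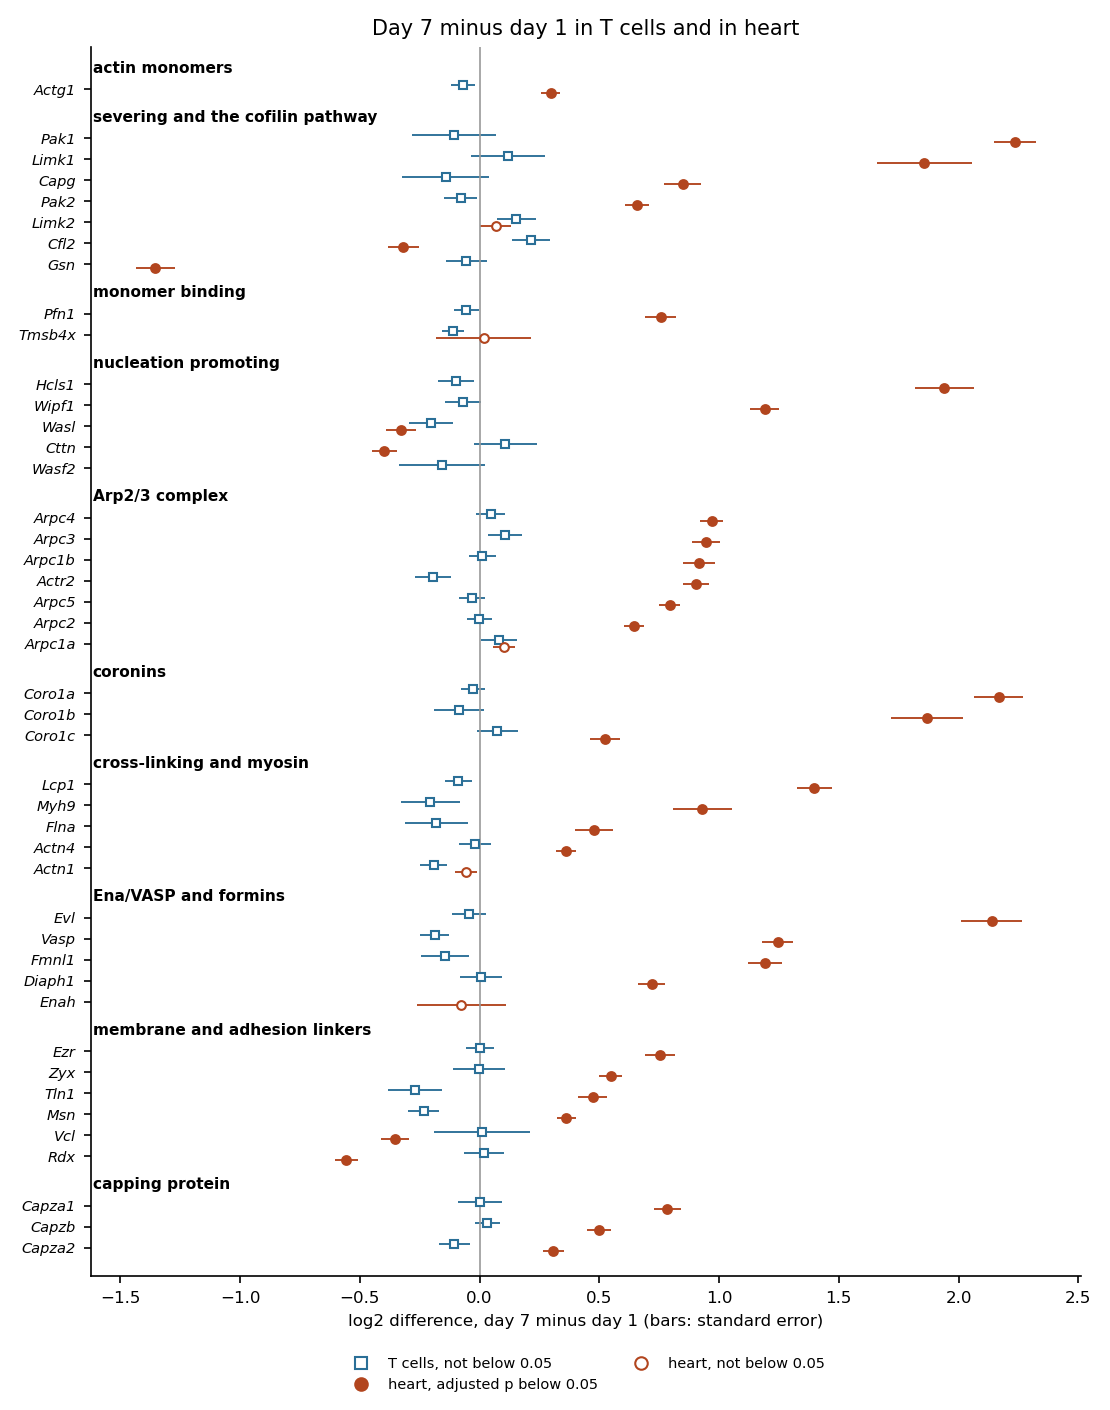
Log2 difference, day 7 minus day 1, of each member with its standard error (horizontal axis), grouped by role, in T cells (squares) and in heart (circles); filled symbols have an adjusted p below 0.05. In heart 38 of 43 symbols are filled, from -1.35 for Gsn to 2.24 for Pak1, while no T cell symbol is filled and all lie between -0.27 and 0.22.

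Of the actin monomers, cytoplasmic gamma-actin (Actg1) had a member probe set. It read 12563, 12350 and 12524 on day 1, 13681, 13796 and 14494 on day 3, and 15209, 15318 and 15460 on day 7 in the grafts. Each day lay above the day before without overlap, and day 7 minus day 1 was 0.30 ± 0.039 (adjusted p = 2.96e-04). Beta-actin could be followed only through the control probe sets of the array, which were not tested. Its 3′ control read 12423 to 12653 on day 1, 13748 to 14524 on day 3 and 15242 to 15984 on day 7. Its 5′ control read 5185 to 6781 on day 1, 7570 to 8835 on day 3 and 10798 to 11176 on day 7, so the 3′ to 5′ ratio, a usual measure of RNA integrity and labelling length, was 1.84 to 2.44 on day 1, 1.64 to 1.87 on day 3 and 1.41 to 1.43 on day 7 in the grafts. On T cell arrays the ratio was 1.27 to 1.40 with no order by day. This ratio moves with day in the grafts alongside the members, and its part in their differences was not tested.

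Monomer-binding proteins hold actin ready for assembly. Profilin (Pfn1), which delivers monomers to growing ends, read 8052, 8334 and 8136 on day 1, 8725, 9012 and 10346 on day 3, and 14168, 13870 and 13419 on day 7 in the grafts and rose by 0.76 ± 0.065 by day 7 (adjusted p = 3.02e-05). Thymosin beta 4 (Tmsb4x), which sequesters monomers, read 10937, 10375 and 10650 on day 1, 12755, 12949 and 12056 on day 3, and 13889, 13585 and 6639 on day 7. The untreated day 7 graft was the lowest of the 9 arrays and lay far below the treated day 7 grafts, and day 7 minus day 1 was 0.017 ± 0.20 (adjusted p = 0.944). Without the untreated arrays it was 0.37 ± 0.046 (adjusted p = 6.01e-04), and without the untreated day 7 graft alone it was 0.35 ± 0.051 (adjusted p = 7.29e-04), so the call turned on that 1 array. Tmsb4x was named for this after its values were seen.

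Nucleation-promoting factors switch the Arp2/3 complex on. Within this group Hcls1 and Wipf1 rose in the grafts by day 7, while Cttn and Wasl fell. Hcls1 (HS1), a cortactin relative of blood cells, read 665, 978 and 815 on day 1, 1030, 993 and 1282 on day 3, and 3112, 3050 and 3300 on day 7, and its day 7 minus day 1 difference was 1.94 ± 0.12 (adjusted p = 7.84e-06). Cortactin itself (Cttn) read 1648, 1607 and 1730 on day 1, 1721, 1698 and 1703 on day 3, and 1311, 1194 and 1267 on day 7. All day 7 values of Cttn lay below all earlier ones, at -0.40 ± 0.052 against day 1 (adjusted p = 2.77e-04). Wipf1 (WIP), which stabilises WASP, rose by 1.19 ± 0.062 (adjusted p = 3.76e-06), while N-WASP (Wasl), the form made in most tissues, fell, with a difference of -0.33 ± 0.063 (adjusted p = 0.00221). Wasf1 and Wasf2, of the WAVE family, read 63.6 to 125 and 50 to 103 in the grafts and were too low to be tested there.

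The Arp2/3 complex moved almost as a block. Of its 7 subunits with a probe set, Arpc4, Arpc3, Arpc1b, Actr2, Arpc5 and Arpc2 were called higher on day 7 than on day 1, with differences between 0.64 and 0.97. Arpc4 read 2576, 2782 and 2835 on day 1, 3162, 3254 and 3475 on day 3, and 5367, 5313 and 5390 on day 7, a rise of 0.97 ± 0.048 (adjusted p = 3.27e-06). Actr2, 1 of the pair of actin-related proteins that seed the branch, read 4699, 4782 and 4669 on day 1, 5798, 5775 and 6496 on day 3, and 9029, 8687 and 8782 on day 7, a rise of 0.90 ± 0.054 (adjusted p = 6.27e-06). The seventh subunit, Arpc1a, read 2723, 2917 and 2920 on day 1, 2908, 2939 and 2884 on day 3, and 2958, 3074 and 3156 on day 7. Its difference of 0.10 ± 0.047 did not pass (adjusted p = 0.0862), whereas its paralogue Arpc1b, which takes the same place in the complex, read 4754, 5122 and 4900 on day 1, 5782, 6005 and 7040 on day 3, and 9260, 9430 and 9192 on day 7 and rose by 0.91 ± 0.067 (adjusted p = 1.44e-05). The difference between the paralogues' changes was not tested.

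As a description, the 80 bases before the RefSeq gene start (GRCr8) are shown for Actr2 at chr14:98535093-98535172 on the minus strand, Arpc3 at chr12:39847437-39847516 on the minus strand and Arpc5 at chr13:67454299-67454378 on the plus strand, with the letters GGAAGT, or their reverse complement ACTTCC, in capitals. GGAAGT holds the GGAA core that ETS factors read.
Actr2: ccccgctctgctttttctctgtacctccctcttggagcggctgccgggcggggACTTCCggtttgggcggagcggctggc
Arpc3: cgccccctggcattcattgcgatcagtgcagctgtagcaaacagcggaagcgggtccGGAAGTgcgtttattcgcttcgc
Arpc5: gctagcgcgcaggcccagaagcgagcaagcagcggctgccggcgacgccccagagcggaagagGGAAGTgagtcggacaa
On either strand, GGAAGT occurs in the 300-base window (250 before the start and 50 after it) of all 7 Arp2/3 subunits in the promoter table, Actr3 included and Arpc1a not listed, and in 16 of the other 38 members listed (42.1%). It occurs in 27.9% of 9284 promoters of genes tested in the grafts and in 22.8% of all 27457 promoters. The letters were chosen with the member values known. They describe the windows and do not show that a factor binds there. The letters GGGCGG (SP1 box), also counted, occur in 85.7% of the Arp2/3 windows and 86.8% of those of the other members. Among genes tested in the grafts the share was 62.2%. For Actg1, which rose on both later days, the 60 bases from 110 to 51 before the gene start (chr10:106121002-106121061 on the minus strand) are shown for the CArG box in capitals, the element that serum response factor reads in cytoskeletal actin promoters.
Actg1: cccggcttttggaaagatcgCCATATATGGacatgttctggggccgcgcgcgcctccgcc
The CArG box occurs in 1.64% of all promoters, in the same form on both strands, and Actg1 alone held it among 45 members listed.

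Coronins guide the Arp2/3 complex and cofilin to filaments. Coronin 1A (Coro1a), the blood-cell form, whose loss causes T cell deficiency in mouse and human, read 1445, 1809 and 1632 on day 1, 1669, 1882 and 2242 on day 3, and 7488, 7787 and 6780 on day 7 in the grafts. The day 7 grafts lay far above both earlier days, which overlapped, and the rise from day 1 was 2.17 ± 0.10 (adjusted p = 2.92e-06). Coro1b, a form of most tissues, read 929, 1009 and 959.8 on day 1, 1172, 1338 and 1919 on day 3, and 3801, 3612 and 3299 on day 7, a rise of 1.87 ± 0.15 (adjusted p = 2.28e-05). The widespread form Coro1c rose less, by 0.52 ± 0.063 (adjusted p = 1.75e-04).

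Among the proteins that elongate unbranched filaments, 4 of 5 rose. Evl, an Ena/VASP protein made in lymphocytes, read 387, 546 and 385 on day 1, 441, 503 and 543 on day 3, and 2101, 2113 and 1702 on day 7 in the grafts, a rise of 2.14 ± 0.13 by day 7 (adjusted p = 6.10e-06). Vasp rose by 1.24 ± 0.063, and the leukocyte formin Fmnl1 read 714, 781 and 791 on day 1, 889, 840.1 and 838 on day 3, and 1790, 1865 and 1633 on day 7 and rose by 1.19 ± 0.071 (adjusted p = 6.10e-06). The widespread formin Diaph1 rose by 0.72 ± 0.057. Enah (Mena), a form made in heart muscle and fibroblasts, read 3031, 3156 and 3674 on day 1, 2851, 1686 and 2383 on day 3, and 3176, 3574 and 2637 on day 7. Its day 7 grafts overlapped with both earlier days, and day 7 minus day 1 was -0.077 ± 0.19 (adjusted p = 0.733). All its day 3 grafts lay below its day 1 grafts, but day 3 minus day 1 did not pass (-0.54 ± 0.19, adjusted p = 0.0654). The capping proteins Capza1, Capza2 and Capzb, which close the growing end, rose by 0.78, 0.31 and 0.50, all 3 called.

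The filament-severing group split. Gelsolin (Gsn), which cuts and caps filaments under calcium, read 11012, 11191 and 11415 on day 1, 12870, 12855 and 10809 on day 3, and 4896, 4626 and 3687 on day 7. All day 7 values lay below all earlier ones, with a difference of -1.35 ± 0.082 against day 1 (adjusted p = 6.36e-06). Cofilin 2 (Cfl2), the muscle cofilin, read 8747, 8467 and 8583 on day 1, 7198, 6650 and 6170 on day 3, and 6509, 7091 and 7092 on day 7, a fall of 0.32 (adjusted p = 0.00303). Macrophage capping protein (Capg), a gelsolin relative, read 2552, 2770 and 2651 on day 1, 2934, 2734 and 3457 on day 3, and 4488, 4510 and 5440 on day 7 and rose by 0.85 ± 0.076 (adjusted p = 3.81e-05). The kinase Pak1, which activates LIM kinase, read 287, 345 and 317 on day 1, 442, 464 and 524 on day 3, and 1608, 1548 and 1482 on day 7. It had the largest day 7 rise of the set, 2.24 ± 0.087 (adjusted p = 1.35e-06), and its related kinase Pak2 rose by 0.66 ± 0.050. LIM kinase 1 (Limk1), which switches cofilin off, read 78.2, 46.6 and 54.4 on day 1, 70.3, 76 and 128 on day 3, and 236, 233 and 298 on day 7. All day 1 and day 3 values of Limk1 lay at or below the 40th percentile of their arrays, so it entered the test, and the count of 32, through the day 7 grafts alone. Limk1 was at least 1.78-fold higher on day 7 than on day 1 (adjusted p = 9.24e-05). Limk2 read 708, 737 and 669 on day 1, 808, 705 and 668 on day 3, and 772, 732 and 711 on day 7, and its difference of 0.067 ± 0.067 did not pass (adjusted p = 0.403).

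Cross-linkers and myosin rose in 4 of 5 genes. L-plastin (Lcp1), which bundles filaments in leukocytes, read 2847, 3470 and 3235 on day 1, 3654, 3533 and 4245 on day 3, and 7954, 8577 and 8641 on day 7 in the grafts, a rise of 1.40 ± 0.073 (adjusted p = 3.76e-06). Non-muscle myosin (Myh9), filamin A (Flna) and alpha-actinin 4 (Actn4) rose by 0.93, 0.48 and 0.36. Alpha-actinin 1 (Actn1) read 3495, 3403 and 3675 on day 1, 4075, 4004 and 4347 on day 3, and 3506, 3205 and 3456 on day 7: it stood highest on day 3, and day 7 minus day 1 did not pass (-0.057 ± 0.046, adjusted p = 0.303).

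The linkers that tie filaments to the membrane and to adhesions again divided by family member. Of the ERM proteins, ezrin (Ezr) and moesin (Msn) rose by 0.75 and 0.36. Radixin (Rdx) read 2968, 2924 and 2793 on day 1, 2730, 2814 and 2818 on day 3, and 1951, 1983 and 1958 on day 7 and fell, with a difference of -0.56 ± 0.047 (adjusted p = 3.00e-05). Talin (Tln1) and zyxin (Zyx) rose by 0.47 and 0.55, while vinculin (Vcl), a talin partner abundant in muscle, fell, with 5035, 4891 and 4365 on day 1, 4655, 4384 and 4126 on day 3, and 3700, 3637 and 3819 on day 7 and a difference of -0.35 ± 0.060 (adjusted p = 0.00108).

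**Figure D2:**
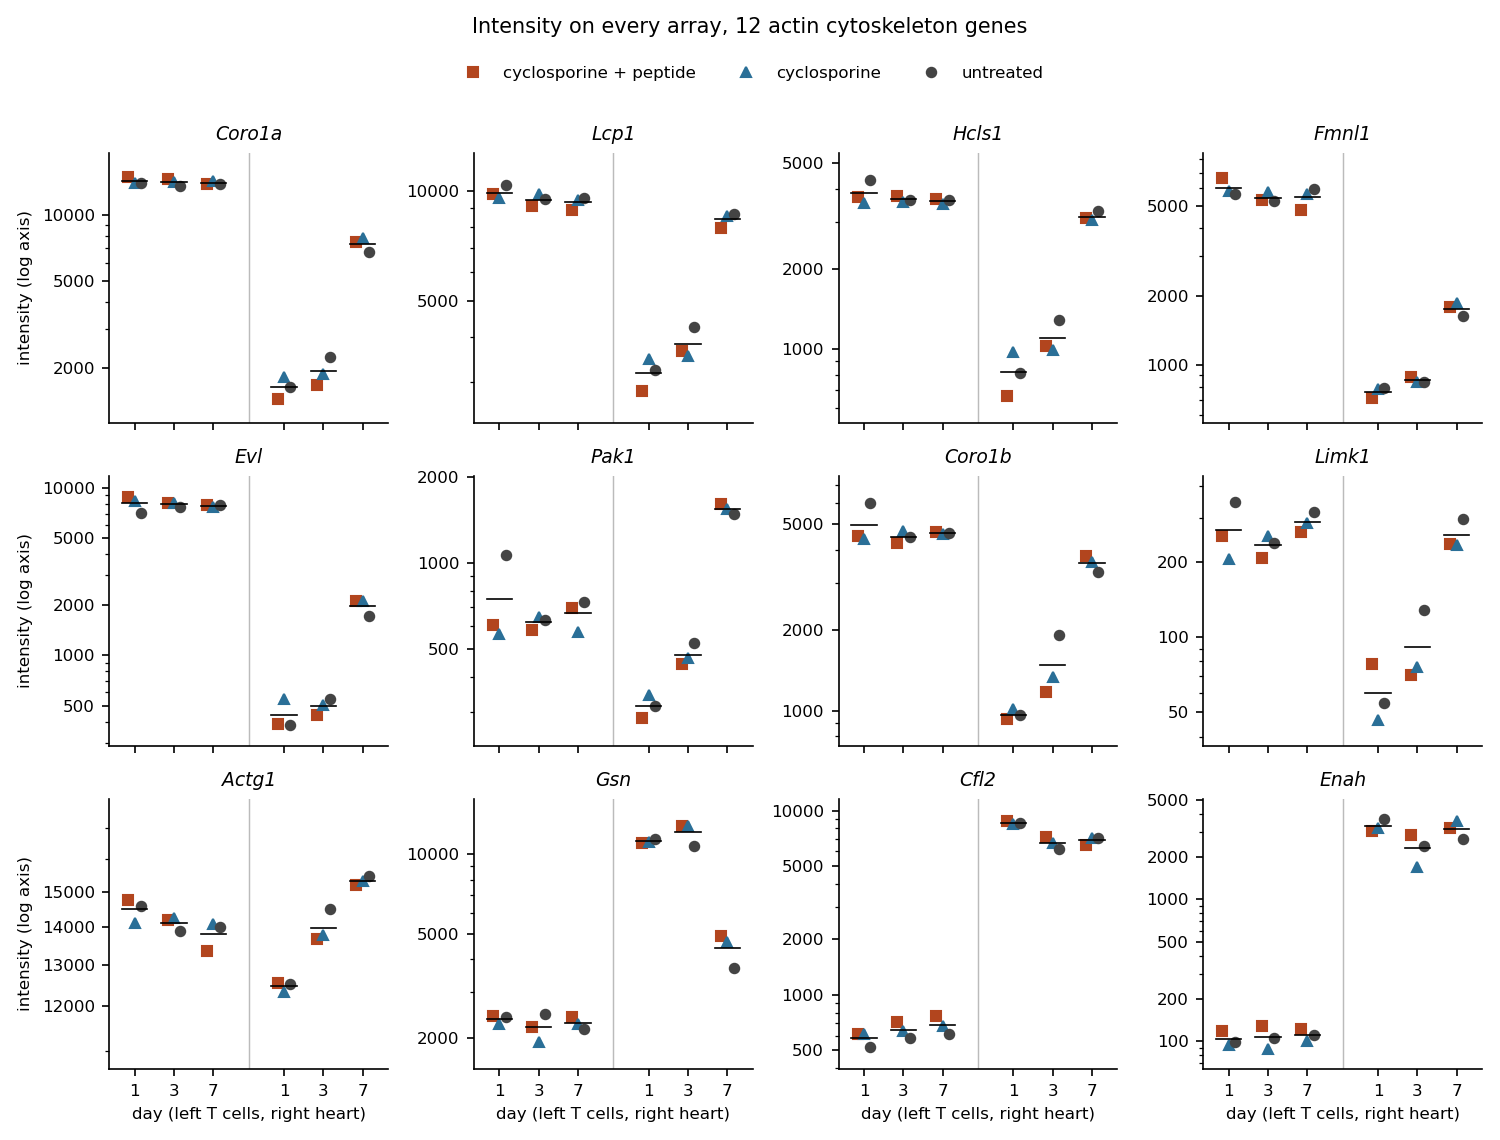
Intensity (log axis) on every array of 12 members by day, T cells left of the line and heart right of it, with 1 point per treatment and a bar at the mean of the 3. The heart values of Coro1a, Lcp1, Hcls1, Fmnl1, Evl and Pak1 lie clearly higher on day 7, those of Gsn lower, and no day difference of the T cell values was called.

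The change was smaller on day 3. Of 43 members, 17 were called higher and 1 lower than on day 1 in the grafts, where 14.6% of all probe sets were called higher and 12.9% lower, with a member median of 0.18 against -0.0016 over all. The cross-linking group (5 of 5) and the Arp2/3 complex (6 of 7) had already risen. None of the 6 linkers, 5 Ena/VASP and formin genes or 3 capping proteins was called. The largest called rises were those of Coro1b (0.57 ± 0.15, adjusted p = 0.0267), Pak1 (0.57 ± 0.087, adjusted p = 0.00489), Myh9 (0.56 ± 0.12, adjusted p = 0.0141), Hcls1 (0.43 ± 0.12, adjusted p = 0.0361) and Arpc3 (0.40 ± 0.059, adjusted p = 0.00412). Myh9 read 1902, 2653 and 2830 on day 1, 3544, 3472 and 3738 on day 3, and 4801, 4767 and 4364 on day 7, and its lowest value was the day 1 graft under cyclosporine plus peptide. Arpc3 read 3846, 3917 and 4012 on day 1, 4718, 5091 and 5846 on day 3, and 7547, 7168 and 8014 on day 7, with no overlap between days. Cfl2 was the 1 member called lower (-0.37 ± 0.065, adjusted p = 0.00746). Coro1a, at 0.24 ± 0.10, did not pass on day 3 (adjusted p = 0.122).

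These day 3 calls rested on few arrays, as did those over all probe sets. Without the cyclosporine arrays 6 of 42 members were called, against 10.5% of all probe sets. Without the cyclosporine plus peptide arrays 5 of 42 were called, near the 8.36% of all probe sets, and without the untreated arrays 16 of 42, against 18.4%. Pak1, Arpc3 and Actr2 were called in all 3 cases. Every other member called on day 3 lost its call in at least 1 of them, and Arpc2 and Actg1 lost it in all 3. Without the cyclosporine plus peptide arrays, only Actr2 and Arpc3 of the Arp2/3 complex and Myh9 of the cross-linking group were called. With arrays centred on their medians 12 members were called higher and 3 lower, and the calls over all probe sets were 2086 higher and 3837 lower, against 2883 higher and 2546 lower as deposited. The macrophage sum was 17285 to 22611 on day 3 and the pan-leukocyte sum 14224 to 16256, both above every day 1 graft, while the T cell sum of 1701 to 2711 overlapped with day 1. The fibroblast sum was 70739 to 77567 on day 3 against 45182 to 49593 on day 1, the smooth muscle sum 6135 to 6806 on day 3 against 4936 to 5628 on day 1, and the platelet sum 4155 to 4357 on day 3 against 2316 to 3528 on day 1, none of them overlapping. The part of these lists was not tested.

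The larger step came between days 3 and 7. Day 7 minus day 3 called 31 members higher and 6 lower of 43, where 26.9% and 29.4% of all probe sets were called, and the member median was 0.49. This comparison shares its arrays with both others. Evl (1.96 ± 0.13, adjusted p = 1.63e-05), Coro1a (1.93 ± 0.10, adjusted p = 7.66e-06), Pak1 (1.67 ± 0.087, adjusted p = 7.27e-06) and Hcls1 (1.51 ± 0.12, adjusted p = 4.04e-05) rose most. Gsn fell, with a difference of -1.47 ± 0.082 (adjusted p = 8.62e-06). Limk1 was at least 1.73-fold higher (adjusted p = 6.68e-04), but here too it entered the test, and the count of 31, through the day 7 grafts alone. Actn1 was higher on day 3 than on day 1 (0.23 ± 0.046, adjusted p = 0.0103) and lower on day 7 than on day 3 (-0.29 ± 0.046, adjusted p = 0.00105). For Cfl2, which was lower on day 3 than on day 1, day 7 minus day 3 did not pass (0.049 ± 0.065, adjusted p = 0.547).

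In T cells no member was called between any 2 days. Of 43 members tested, 0 passed for day 3 minus day 1 and for day 7 minus day 3, where 0% of all probe sets passed, and 0 for day 7 minus day 1, where 0.575% did. At an unadjusted p below 0.05 these comparisons held 3, 1 and 7 members. Of all 19464 probe sets, 1615, 1050 and 4654 lay below that threshold, in the same order. In a fit over both tissues together, which called 10.8% of all probe sets for day 7 minus day 1 and 0.134% for day 7 minus day 3, 2 and 1 of 44 members passed: Msn (-0.23 ± 0.050) and Actn1 (-0.19 ± 0.044) were called lower on day 7 than on day 1, and Actn1 (-0.28 ± 0.044) lower on day 7 than on day 3. On the 9 T cell arrays Coro1a read 13469 at the lowest, 13962 at the median and 14789 at the highest, Lcp1 8896 at the lowest, 9568 at the median and 10373 at the highest, Hcls1 3521 at the lowest, 3632 at the median and 4335 at the highest and Fmnl1 4791 at the lowest, 5640 at the median and 6645 at the highest. The untreated day 1 array, which carried the neutrophil transcripts, had the highest T cell values of Pak1 (1069, against 562.9 to 729.5 on the other 8), Capg (3359), Coro1b (6007), Vcl (642) and Actr2 (12426). Without it, 0 members were called in each of these comparisons as well.

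The day 7 change differed between the tissues. A test of this difference called 32 of 44 members lower in T cells than in heart and 4 higher, where 23.5% and 23.2% of all probe sets were called, with a member median of -0.73 against 0.011 over all. The 4 higher ones, Gsn (1.30 ± 0.12, adjusted p = 6.18e-06), Rdx (0.57 ± 0.089), Cfl2 (0.53 ± 0.093) and Cttn (0.51 ± 0.13), are members that fell in the grafts. The most negative were Pak1 (-2.34 ± 0.21, adjusted p = 4.46e-06), Coro1a (-2.19 ± 0.12, adjusted p = 2.53e-07) and Evl (-2.18 ± 0.16, adjusted p = 1.00e-06). Arpc1a, Limk2, Wasl, Tmsb4x, Enah, Actn1, Vcl and Wasf2 did not pass. Without the untreated day 1 T cell array the counts were again 32 and 4.

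Most members differed in level between T cells and hearts. Over 9 arrays of each, 29 of 44 members were called higher in T cells and 9 lower, where 47.9% and 35.5% of all probe sets were called. The member median was 0.57, against 0.15 for the median over all probe sets, which lay between 0.15 and 0.25 under the scalings tried. Relative to the bulk of the array each member difference is therefore 0.15 lower. Evl, Fmnl1 and Coro1a were highest in T cells relative to hearts. Enah, Cfl2, Vcl, Cttn and Gsn were the lowest. Of the 18 members with several probe sets, 14 had all of them on 1 side, the exceptions being Actn1, Coro1c, Enah and Wasl. Wasf2 and Limk1 are among those called higher but were dim, Wasf2 on all 9 heart arrays and Limk1 on 6. Wasf2 was also dim on 4 of 9 T cell arrays. It entered the test, and the count of 29, through T cell arrays alone. As bounds, Wasf2 was at least 1.004-fold and Limk1 at least 1.48-fold higher in T cells. For Wasf2 the bound leaves almost no difference, so its call does not give the size of one. Because graft levels of many members depend on the day, these differences are averages over 3 days.

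Evl read 7080 at the lowest, 7876 at the median and 8736 at the highest in T cells, against 385 at the lowest, 543 at the median and 2113 at the highest in hearts, a difference of 3.37 ± 0.26 (adjusted p = 5.85e-09). Its relative Enah read 88.6 at the lowest, 105 at the median and 128 at the highest in T cells, against 1686 at the lowest, 3031 at the median and 3674 at the highest in hearts, with no overlap for either gene. On 8 of 9 T cell arrays Enah lay at or below the 40th percentile, and it was at least 19.7-fold lower in T cells (adjusted p = 3.42e-15). Another probe set of Enah, near the bottom of the scale, did not show this difference (0.039). Fmnl1 read 4791 at the lowest, 5640 at the median and 6645 at the highest in T cells, against 714 at the lowest, 840.1 at the median and 1865 at the highest in hearts (2.40 ± 0.16, adjusted p = 6.33e-10).

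Hcls1 was higher in T cells, at 1.38 ± 0.23 (adjusted p = 4.20e-05), and each T cell array exceeded every heart array. Its relative Cttn read 169 at the lowest, 189 at the median and 239.5 at the highest in T cells, against 1194 at the lowest, 1648 at the median and 1730 at the highest in hearts (-2.88 ± 0.083, adjusted p = 3.97e-14). The muscle cofilin Cfl2 read 523 at the lowest, 616 at the median and 764 at the highest in T cells, against 6170 at the lowest, 7092 at the median and 8747 at the highest in hearts (-3.50 ± 0.078, adjusted p = 1.93e-15). Vcl read 333 at the lowest, 456 at the median and 642 at the highest in T cells, against 3637 at the lowest, 4365 at the median and 5035 at the highest in hearts (-3.18 ± 0.11, adjusted p = 2.88e-13). Coro1a, Lcp1, Coro1b, Wipf1 and Ezr were higher in T cells by 2.30, 1.03, 1.44, 1.35 and 1.40. Gsn, Rdx, Capg, Arpc1a and Coro1c were lower, with differences of -1.88, -1.37, -0.63, -0.35 and -0.20, and a second, dim probe set of Coro1c had a difference of 0.088.

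**Figure D3:**
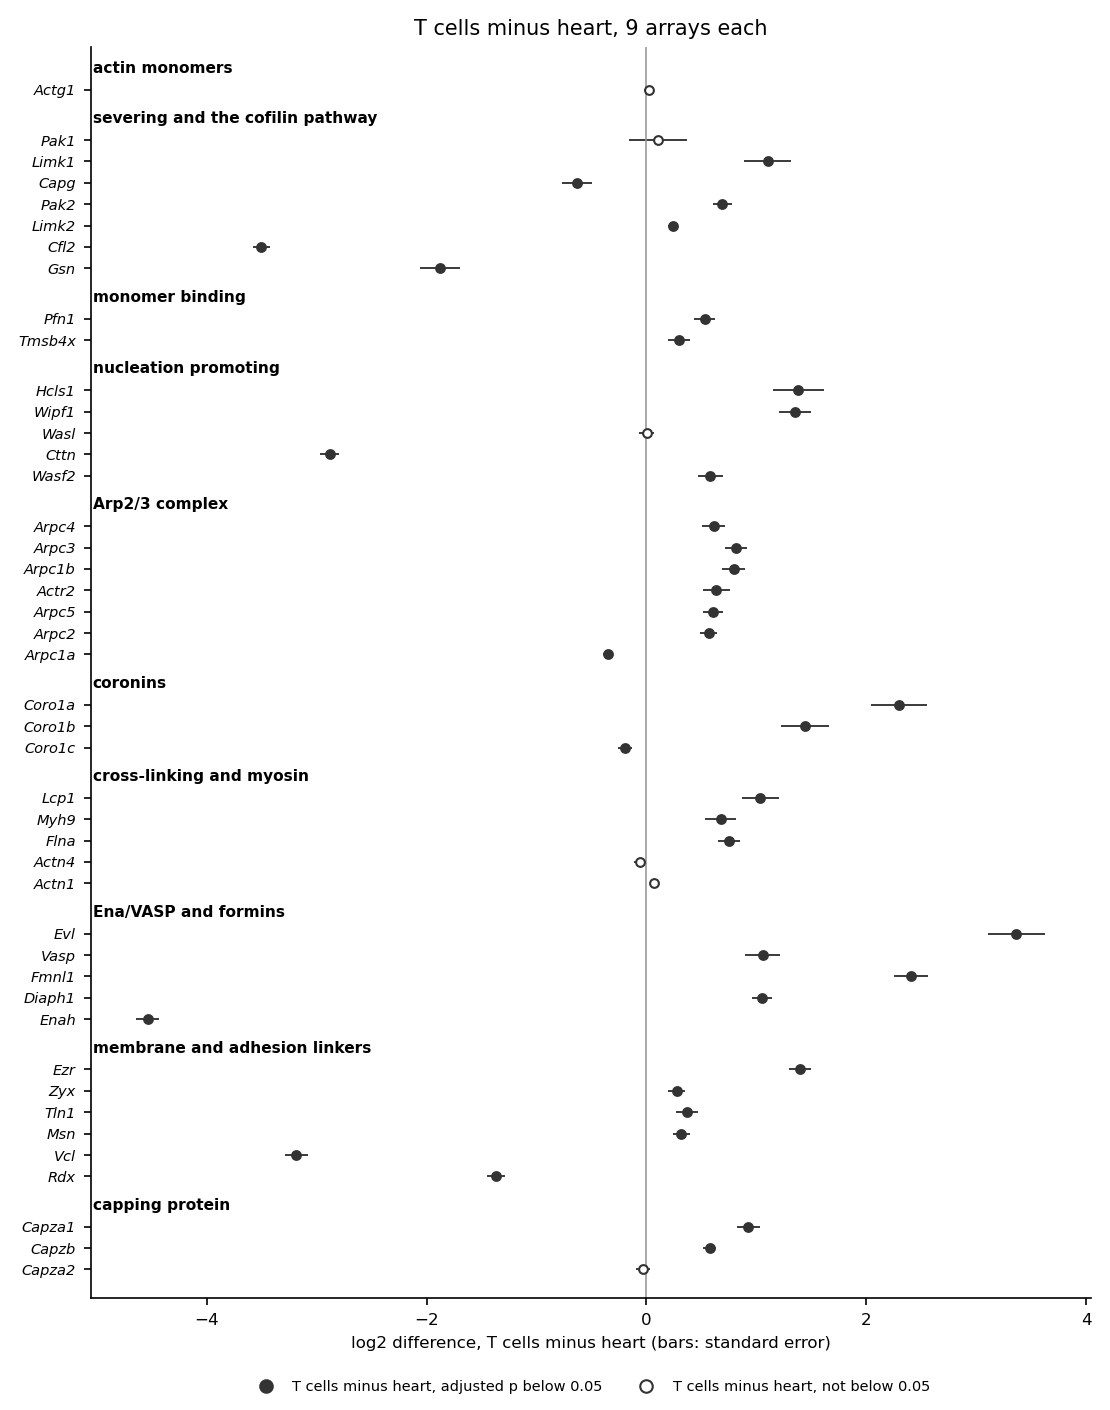
Log2 difference, T cells minus heart, over 9 arrays of each, per member with its standard error, by role; filled symbols have an adjusted p below 0.05. The highest value is 3.37 for Evl, and 38 of 44 symbols are filled. The lowest symbol, Enah, is a fitted value against T cell arrays of which 8 of 9 lay at or below the 40th percentile. Wasf2 and Limk1 are fitted values too, with 9 and 6 of 9 heart arrays at or below that level.

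The 6 Arp2/3 subunits that rose in the grafts were also higher in T cells, by 0.57 to 0.81, and Arpc1a was lower. Gamma-actin read 13376 at the lowest, 14127 at the median and 14771 at the highest in T cells, against 12350 at the lowest, 13796 at the median and 15460 at the highest in hearts. The tissues overlapped (0.027 ± 0.045, adjusted p = 0.586), the sign turned to -0.0673 without the day 1 arrays, and the difference passed without the day 7 arrays (0.12), with arrays centred on their medians (0.13) and with the mean of both probe sets (0.26). Tmsb4x was called higher in T cells (0.30 ± 0.10, adjusted p = 0.0134), a call that ended without the untreated arrays (0.17, adjusted p = 0.0520). Pak1, Wasl, Capza2, Actn4 and Actn1 did not pass in T cells minus heart either. For Pak1 and Capg the day 7 grafts read above every T cell array: Pak1 1482 to 1608 in day 7 grafts against 563 to 1069 in T cells, and Capg 4488 to 5440 in day 7 grafts against 1643 to 3359 in T cells. Both comparisons of Pak1 and Capg were picked after their values were seen and were not tested.

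In the fits within each tissue, no member passed in any comparison of treatments. Of 43 members per tissue, 0 were called for cyclosporine plus peptide minus untreated, for cyclosporine minus untreated and for cyclosporine plus peptide minus cyclosporine, in grafts and in T cells alike, and 0% of all probe sets were called in each. At an unadjusted p below 0.05 the grafts held 5, 5 and 0 members and the T cells 10, 1 and 0, in that order. Of all probe sets, 3156, 2288 and 954 of 19737 lay below it in grafts, and 4636, 2216 and 857 of 19464 in T cells. The tissue interaction of each treatment against untreated called 0 of 44 members, where 0.00448% of all probe sets were called in each. At an unadjusted p below 0.05 it held 2 members for cyclosporine and 6 for cyclosporine plus peptide. Of all 22327 probe sets, 2282 and 4625 lay below that threshold. In simulated data, 200 probe sets drawn from all those tested were changed. A difference of 0.5 for cyclosporine minus untreated was recovered in 66.9% of cases in grafts and 33.2% in T cells. A difference of 1 was recovered in 98.5% and 89.7%, so smaller differences could go uncalled. These rates are over probe sets at large, not over the members, and the other changed probe sets entered the same adjustment.

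**Figure D4:**
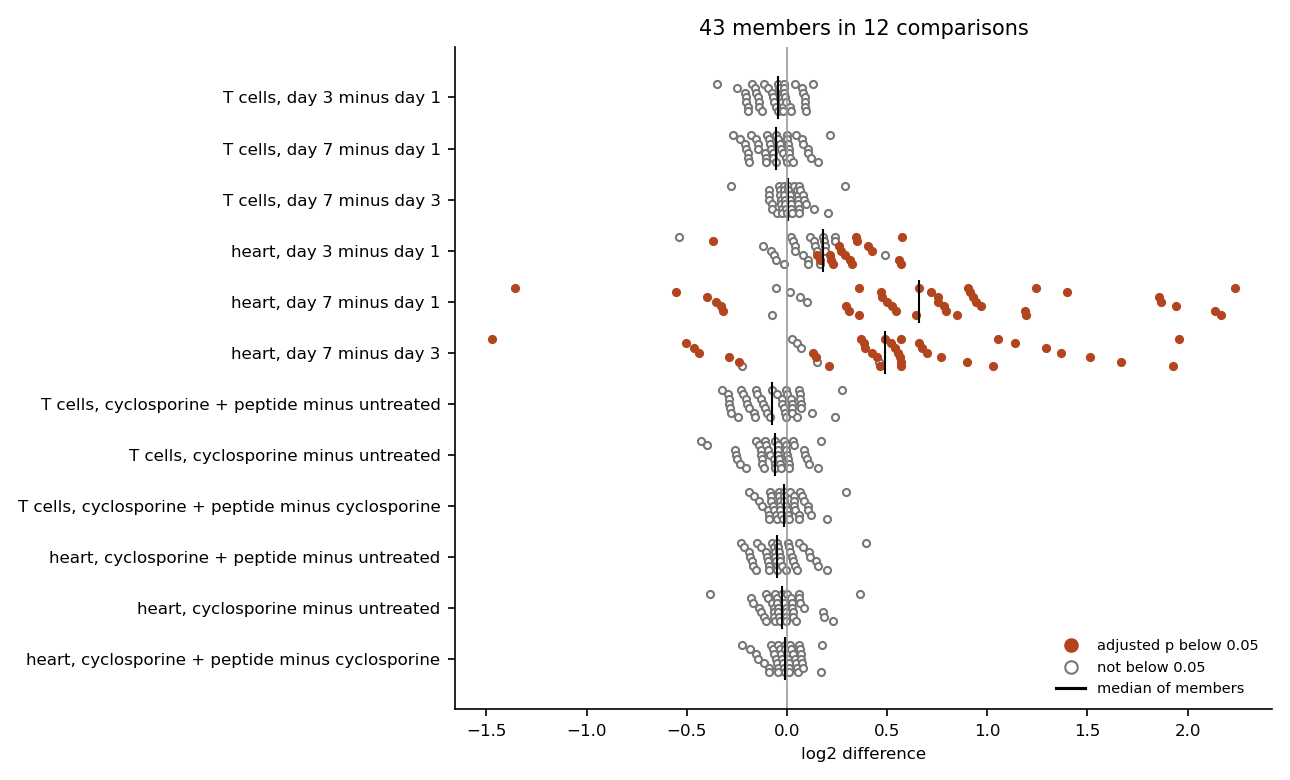
Log2 differences of the members (points) in 12 comparisons between days and between treatments, with the median as a bar; filled points have an adjusted p below 0.05. The 3 day comparisons in heart hold 18, 38 and 37 called members, and the other 9 hold none.

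For each treatment comparison, 3 members were picked whose 3 daily differences had 1 sign and whose smallest daily difference was largest. None of them passed. In grafts, cyclosporine minus untreated gave -0.38 ± 0.20 for Limk1, which was dim on 6 of the 9 arrays, -0.17 ± 0.047 for Zyx and -0.11 ± 0.046 for Actn1 (adjusted p = 0.516, 0.285 and 0.413). Cyclosporine plus peptide minus untreated gave -0.17 ± 0.073 for Lcp1, -0.23 ± 0.12 for Hcls1 and 0.15 ± 0.067 for Limk2 (adjusted p = 0.303, 0.392 and 0.311). Cyclosporine plus peptide minus cyclosporine gave -0.18 ± 0.10 for Coro1a, 0.075 ± 0.049 for Capzb and 0.056 ± 0.040 for Msn, and the last 2 turned sign when all probe sets of a gene were averaged. On day 3 alone, 30 of 43 members were lower under cyclosporine plus peptide than without treatment and 32 under cyclosporine, where 54.4% and 50.2% of all tested probe sets were lower, with member medians of -0.083 and -0.097. On day 1 the counts were 28 and 21, where 52.9% and 49.3% of all probe sets were lower, and on day 7 they were 20 and 21, where 53.3% and 49.8% were lower. The untreated day 3 graft also had the highest pan-leukocyte (16256), macrophage (22611) and neutrophil (24763) sums of its day, against at most 14637, 19132 and 10450 in the treated grafts. Each single-day value is 1 array against 1 array, with no test, and the part of the marker lists was not tested.

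In T cells on single days, 26, 25 and 30 of 43 members were lower under cyclosporine plus peptide than without treatment on days 1, 3 and 7, against 41.3%, 48.2% and 47.8% of all probe sets. Under cyclosporine 33, 16 and 28 were lower, against 41.1%, 48.3% and 49% of all. Each single-day count is 1 array against 1 array, with no test. The day 1 counts are taken against the untreated day 1 array, which carried the neutrophil transcripts. Over the 3 days, cyclosporine plus peptide minus untreated gave 0.28 ± 0.080 for Cfl2, -0.30 ± 0.20 for Vcl and -0.29 ± 0.15 for Limk1 (adjusted p = 0.124, 0.389 and 0.285). Cyclosporine minus untreated gave -0.25 ± 0.13 for Cttn, 0.17 ± 0.080 for Cfl2 and 0.11 ± 0.059 for Ezr. Cyclosporine plus peptide minus cyclosporine gave -0.089 ± 0.069 for Actn4, 0.12 ± 0.087 for Gsn and 0.067 ± 0.074 for Hcls1. In the fit over both tissues, 3 of 44 members passed for cyclosporine plus peptide minus untreated. They were Cfl2 (0.28 ± 0.066), Msn (-0.20 ± 0.050) and Wipf1 (-0.24 ± 0.069). Of 22327 probe sets, that fit called 939 higher and 1210 lower. Cfl2 read 613, 616 and 523 on day 1, 708, 638 and 579 on day 3, and 764, 673 and 609 on day 7, with the untreated array lowest on each day. Without the day 1 arrays, and so without that untreated array, 6 of 43 members were called lower under cyclosporine plus peptide than without treatment. Of all probe sets, 7.25% were called lower and 5.89% higher. The 6 members were Wipf1 (-0.32 ± 0.064), Tln1 (-0.38 ± 0.078), Myh9 (-0.41 ± 0.085), Flna (-0.32 ± 0.070), Pak2 (-0.26 ± 0.059) and Actn4 (-0.22 ± 0.055). Myh9 on T cell arrays read 6281, 5341 and 6538 on day 1, 4596, 5825 and 5472 on day 3, and 4192, 5478 and 6209 on day 7, lowest under cyclosporine plus peptide on days 3 and 7 but not on day 1.

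A second list of 58 actin regulators outside the set, such as tropomyosins, bundling proteins and WAVE-complex subunits, had 52 genes with a probe set. In grafts 35 of 52 were called higher and 8 lower on day 7 than on day 1, against 30.9% and 33.8% of all probe sets, and 17 and 2 on day 3, against 14.6% and 12.9%. The day 7 rises included those of Aif1, an actin-bundling protein of macrophages (2.40 ± 0.092), and Vav1, an exchange factor of blood cells (2.24 ± 0.11). The falls were led by the kinase Rock2 (-1.10 ± 0.061), Wipf3 (-0.76 ± 0.089) and profilin 2 (-0.56 ± 0.079). On day 3, Aif1 (0.88 ± 0.092), Diaph3 (0.81 ± 0.19) and Vav1 (0.64 ± 0.11) had risen, and Rock2 (-0.53 ± 0.061) and Nckap1 (-0.17 ± 0.049) had fallen. In T cells 0 of 50 were called for day 7 minus day 1. T cells minus heart called 26 of 52 higher, among them Cyfip2 (2.84 ± 0.23) and Dock8 (2.17 ± 0.22), and 20 lower, among them Fermt2 (-4.63 ± 0.077), Nckap1 (-4.45 ± 0.11) and Pls3, which was at least 22.3-fold lower. These shares lie near the 47.9% and 35.5% of all probe sets called in that comparison.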

How the data were processed

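RNA of 9 T cell samples and 9 hearts was amplified and biotin-labelled with an Enzo kit, per the labels' protocols. For each array the authors deposited a linear intensity per probe set. How these were computed and normalized is not given in the sources used here, and 771 lie below 0. Negative values were taken as 0, and the analysis used log2(intensity + 16) without further scaling, which understates differences of dim genes. Control probe sets (57 of 31099) were left out. Of the rest, 20826 have 1 gene symbol in the platform annotation, 436 several and 9780 none there, and Entrez identifiers of 20758 matched the RefSeq gene table.

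Tests were limited to probe sets that exceeded the 40th percentile of the array on 3 or more arrays entering the fit. R 4.3.3 with limma 3.58.1 and statmod 1.5.0 was used, the spread was allowed to depend on the mean, and p-values were adjusted by Benjamini-Hochberg. Treatment and day were fitted within each tissue (4 residual degrees of freedom), tissue was added for T cells minus heart (12), and tissue interactions were tested with 8. Each combination has 1 array, and shared animals or pooled RNA are not stated in the labels, so p-values measure the scatter of these samples alone, part of which may be technical. That scatter is what the additive fit leaves, so it also holds treatment differences that are unequal between days. In T cells minus heart it further holds day or treatment changes that are unequal between the tissues. The number of arrays limits the precision. Tests were checked on simulated data with 200 probe sets changed. Promoters are RefSeq windows on GRCr8, found for 45 of 50 members by symbol.

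Alternatives covered array scaling, pseudocount, filter, choice of probe set, model of the spread, joint fits and leaving out each treatment or day. Leaving out the untreated day 1 T cell array or the untreated day 7 graft was added after seeing the data. Per day or tissue comparison, up to 6 called members of 1 sign in all matched differences were named by size. Per treatment comparison, where none passed, the 3 with the largest smallest same-sign difference were named. Actb, Actg1, Was, Coro1a, Lcp1, Hcls1 and Fmnl1 were always named, and up to 3 other regulators per direction, of which 1 is not reported here. The members and lists were chosen with earlier results of these data known.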

Additional observations from a re-analysis of the deposited data

Results flagged for a closer look

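For 36 of 44 members the day 7 minus day 1 change differed between T cells and heart by a limma interaction test with an adjusted p below 0.05 over 22327 probe sets, of which 23.5% were called lower and 23.2% higher in T cells. The value is the change in T cells minus the change in heart, on the log2 scale. Among the coronins, cross-linkers and myosin it was -2.19 for Coro1a, -1.95 for Coro1b, -0.45 for Coro1c, -1.49 for Lcp1, -1.14 for Myh9, -0.66 for Flna and -0.38 for Actn4. In the Arp2/3 complex it was -1.10 for Actr2, -0.92 for Arpc4, -0.90 for Arpc1b, -0.84 for Arpc3, -0.83 for Arpc5 and -0.65 for Arpc2. For the elongating and capping proteins it was -2.18 for Evl, -1.43 for Vasp, -1.34 for Fmnl1, -0.71 for Diaph1, -0.78 for Capza1, -0.47 for Capzb and -0.41 for Capza2. For the kinases and Capg it was -2.34 for Pak1, -1.74 for Limk1 (a fitted value, its day 1 grafts being at or below the 40th percentile of their arrays), -0.74 for Pak2 and -0.99 for Capg. For monomers, profilin and nucleation-promoting factors it was -0.36 for Actg1, -0.81 for Pfn1, -2.04 for Hcls1 and -1.26 for Wipf1. For the linkers it was -0.75 for Ezr, -0.74 for Tln1, -0.59 for Msn and -0.55 for Zyx. It was positive for Gsn (1.30), Rdx (0.57), Cfl2 (0.53) and Cttn (0.51). Pan-leukocyte, T cell and macrophage marker sums were higher in day 7 than in day 1 grafts, and the neutrophil sum was lower. The part of these lists in the differences was not tested.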

How the results depend on the processing

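The counts of called members kept their side under most alternatives. For day 3 minus day 1 in grafts, where 18 were called, leaving out arrays gave 5 to 22. It gave 6 without the cyclosporine arrays and 5 without the cyclosporine plus peptide arrays, where 10.5% and 8.36% of all probe sets were called. The 22 came without the untreated day 7 graft, where 3243 of 19346 probe sets were called higher and 2863 lower. The fit over both tissues called 2 members for T cells day 7 minus day 1, 1 for day 7 minus day 3 and 3 for cyclosporine plus peptide minus untreated, where the fit within T cells called 0. Of 22327 probe sets it called 1277 higher and 1145 lower, 22 and 8, and 939 and 1210, in that order. In that treatment comparison leaving out arrays gave 0 to 6, the 6 without day 1. Leaving arrays out gave 37 to 38 for day 7 minus day 1 in grafts, 31 to 37 for day 7 minus day 3, 35 to 40 for T cells minus heart, 36 to 37 for the tissue difference in the day 7 change, and 0 in the other comparisons. The cause of these shifts was not tested. Of single members, with the mean of all probe sets of a gene, cyclosporine plus peptide minus cyclosporine in grafts turned to -0.104 for Capzb and -0.0152 for Msn, and day 7 minus day 1 in T cells to 0.0066 for Actg1. Leaving out 1 day or treatment moved T cells minus heart for Actg1 between -0.0673 and 0.1151. Day 7 minus day 1 in T cells ran from -0.0576 to 0.0069 for Coro1a and from -0.2544 to 0.0197 for Fmnl1 with arrays left out, the positive ends without the cyclosporine plus peptide arrays, and turned for Coro1a to 0.0119 and 0.0129 with quantile scaling over all arrays and within tissue. None of these results was called as reported. Over all 58 named member results, 800 alternative values kept side and direction, 19 lost their call, 4 gained 1 and 8 turned sign, and all 19 lost calls belong to day 3 minus day 1 in grafts. Dim members such as Wasf1, Wasf2, Enah in T cells and Limk1 in day 1 grafts lie near the low end of the scale, and Actg1, Tmsb4x, Pfn1 and Coro1a near its top. The fits already match arrays by treatment and day. No paired analysis was possible because no replicate number is shared beyond that, with 1 array per combination.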
